A study of Mus musculus with 8 samples.

Results

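The cells described here were bone marrow progenitors that held RNA of Dntt, the terminal transferase that adds untemplated bases at the joints of antigen receptor genes, together with RNA of Flt3, the receptor tyrosine kinase of early lymphoid-competent progenitors. They were selected on raw unique molecular identifier (UMI) counts, each UMI standing for 1 captured RNA molecule. A member had at least 1000 UMIs in all, under 10% of them from mitochondrially encoded genes, at least 1 Dntt UMI, at least 1 Flt3 UMI, and no UMI of Il7r (the interleukin-7 receptor) or Siglech (a plasmacytoid dendritic cell surface protein). This gave 2678 members among 46159 kept cells, from 59465 barcodes in all. Because the members were chosen by Dntt, Flt3, Il7r and Siglech, the levels of these genes, and every difference between members and other cells, are given as descriptions without a test. The age of a mouse did not enter the rule.

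Lymphoid-primed multipotent progenitors stand at the point where haematopoietic stem and multipotent cells turn towards the B, T and innate lymphoid fates while still able to make granulocytes and macrophages. They carry high Flt3 and switch on part of the lymphoid programme, such as Dntt, Satb1 and unrearranged transcripts of the immunoglobulin heavy-chain locus. The interleukin-7 receptor and the recombinase genes Rag1 and Rag2 reach higher levels later, in common lymphoid progenitors. A loss of lymphoid output is a known feature of the ageing bone marrow, and this early stage is one of those where it has been sought.

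The series held marrow cells sorted as c-Kit-positive and lineage-negative from 8 wild-type mice, 1 mouse per library, whose strain the labels do not give. There was 1 male and 1 female at each of 4 ages. These were young mice of 14 weeks, middle-aged mice of 50 weeks, old mice of 78 weeks (male) and 79 weeks (female), and very old mice of 95 weeks. The 4 old and very old mice are together called older. Libraries held 83062003 to 150135029 UMIs, and the members of a mouse summed to 3378458 to 8215869 UMIs. The very old mice alone had library names of another series (SL20, against SL19 for the others), so their library series and their age (95 weeks) cannot be told apart. The 28 pairs of libraries shared 6 to 27 cell barcodes, at most 0.382% of the smaller library. Members of the 2 middle-aged mice were deeper, with a median of 18890 (male) and 17494.5 (female) UMIs per cell, against 12195 to 15362 in the other 6 mice. Their median mitochondrial share was also lower, at 4.72% and 4.62%, against 5.06% to 5.67%. For most middle-aged results, values in thinned cells or in members of 8000 to 20000 UMIs are given as well. In sums over cells of a sort, fewer cells of a kind and less RNA per cell cannot be told apart.

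Members were spread over all mice: 408 in the young male, 379 in the young female, 407 and 330 in the middle-aged male and female, 308 and 333 in the old, and 268 and 245 in the very old. Many stood at the edge of the gate. Of the 2678 members, 836 (31.2%) had a single Dntt UMI, 709 (26.5%) a single Flt3 UMI, and 344 (12.8%) a single UMI of each. Dntt itself was detected in 0.535% to 4.71% of cells with both Gata1 and Klf1 and no Flt3, unthinned, so single-UMI members may include cells with free Dntt RNA, which was not tested. Just outside it stood 1199 Dntt-positive cells without Flt3, 326 cells with Dntt, Flt3 and Il7r, and 19 with Dntt, Flt3 and Siglech, out of 4247 kept cells with Dntt. Scaled to the summed UMIs of the members as CPM, the usual depth-scaled count, Dntt ranged over the mice from 365 to 486 (median 453), Flt3 from 152 to 225 and Satb1, the chromatin organiser of early lymphoid cells, from 105 to 151. The lowest Dntt level was that of the middle-aged female, and the age groups overlapped in Dntt, whereas in Flt3 the middle-aged male (152) and female (159) lay below the other 6 mice.

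The label was checked against Satb1 and other markers that the rule did not use. To set cells of unequal depth side by side, each cell was also thinned to 5000 UMIs at random and the gate applied again. Thinning can drop the UMIs of Dntt, Flt3, Il7r or Siglech, so thinned groups do not hold the same cells as unthinned ones. In thinned cells, Satb1 was detected in 53.0% to 63.1% of the members of a mouse. Multipotent neighbours were cells with Flt3 and Cd34 but no Dntt, Il7r or Siglech, 6107 in all before thinning. Among the 258 to 414 of these per mouse after thinning, that share was 20.6% to 38.2%. In cells with UMIs of both Gata1 and Klf1, erythroid factors, and none of Flt3, taken as a guide to free RNA, it was 0.5% to 4.4%. Without thinning, the shares were 71.2% to 81.1%, 41.4% to 56.2% and 2.9% to 8.5%, at median depths of 12195 to 18890, 15106 to 24155.5 and 17142.5 to 36642 UMIs. The erythroid-marked cells also held Cd34 in 9.82% to 27.7% unthinned. Whether they make RNA of the genes measured here was not tested. Ighm, the heavy-chain constant gene, was seen in 70.0% to 86.0% of unthinned members, 35.0% to 58.6% of neighbours and 2.1% to 9.7% of erythroid-marked cells. The B-lineage genes Cd79a and Ebf1 were near 0, in at most 1.0% and 2.4% of unthinned members of a mouse. Of the recombinase genes, Rag1 was in at most 1.3% of unthinned members. Rag2 was detected in more members, 2.21% to 8.33%, against 0.137% to 1.31% of neighbours and 14.3% to 64% of Il7r-positive cells. The markers thus stood largely as the label says, with Rag2 in a minority of members. The myeloid granule genes Mpo and Elane were detected widely, since 30.7% to 78.6% and 18.2% to 70.0% of erythroid-marked cells held a UMI of them. No share of cells is read from them.

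The members were not uniform, and the detection of several genes went with Dntt level. In thinned cells, gated again, members with 3 or more Dntt UMIs were set against members with 1. Cells whose Il7r UMIs were lost in thinning could enter these groups. Unthinned, Il7r-positive cells held more Dntt than members (mean 1685 against 442 CPM). The part of such cells in the values below was not tested. Satb1 was detected in a median of 61.9% over the mice in the first and 44.0% in the second, and was higher in the first in 8 of 8 mice. Ighm, at 75.6% against 53.0%, and Notch1, the receptor that drives T-lineage fate, at 32.9% against 17.3%, were likewise higher in all 8. Ccr9, the chemokine receptor of thymus-seeding progenitors, was at 5.94% against 2.50%, higher in 8 of 8. It rested on few cells, such as 4 of 88 against 2 of 53 in the old male. Rag2 was higher in 6 mice and lower in 2. Of the stem cell genes, 2 went the other way in every mouse: Hlf, a stem cell transcription factor, was detected in 24.0% of the Dntt-richer members against 43.6%, and Procr, the endothelial protein C receptor of stem cells, in 1.84% against 7.25%. Kit was lower in 7 of 8 mice, but Ly6a, another stem cell marker, was lower in 5 and higher in 3, and Cd34 was higher in 5 and lower in 3. Since Dntt chose the members, these values are a description of the spread of cells that passed the thinned gate.

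**Figure D1:**
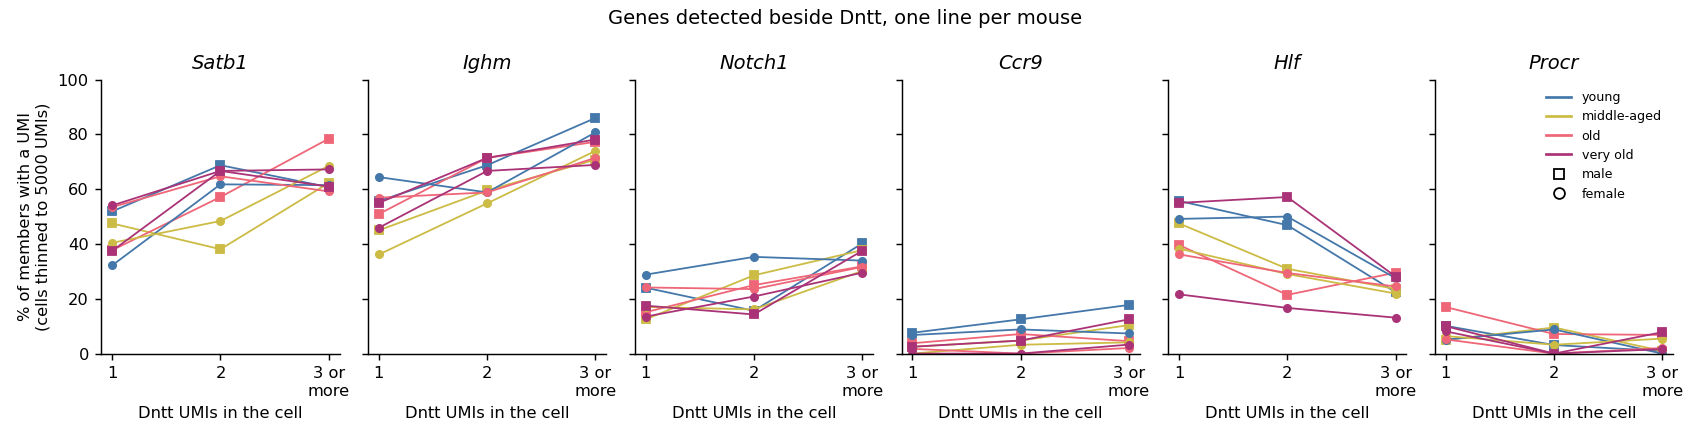
Share of members with a UMI of each gene against the Dntt UMIs of the cell (1, 2, or 3 or more), with 1 line per mouse (8 mice). Cells were thinned to 5000 UMIs and gated again, so some may have lost Il7r UMIs in thinning. Satb1, Ighm, Notch1 and Ccr9 were higher in the Dntt-richer members of all 8 mice, and Hlf and Procr lower in all 8.

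Against the multipotent neighbours without Dntt, members carried more RNA of a mixed set of lymphoid and other genes. The ratios below are mean log2 ratios of CPM with 1 added, over the 8 mice. Genes were ranked among those with a mean of 10 CPM or more in the population where they were higher, and with the same direction in all 8 mice. Agreement over the mice was thus a condition of the ranking. Fixed markers, among them Satb1, Notch1, Ighm, Hlf, Cd34, Mpo and Procr, were added without these conditions. Among the largest ratios were those of Arpp21, an RNA-binding protein of thymocytes and neurons (2.91), Cmah (2.83), a sialic acid hydroxylase, and Lck, the proximal T cell receptor kinase (2.29). Wfdc17, a secreted whey-acidic-protein family member, stood at 147 ± 33.2 CPM in members and 30.0 ± 8.83 in neighbours (SD, n = 8). Il12a, a subunit of interleukin-12, stood at 92.5 ± 17.0 and 23.9 ± 4.73. Satb1 (1.51), Notch1 (1.19) and Ighm (1.07) had ratios above 0 in 8 of 8 mice, and so did Hlf (0.37) and Cd34 (0.33). Procr had a mean ratio of -0.24, lower in 6 mice and higher in 2. In thinned cells, gated again, Hlf was detected in a median of 30.8% of members (16.4% to 41.6%) over the mice. In thinned neighbours the median was 39.8% (27.4% to 45.9%). Unthinned, the medians were 55.2% in members and 44.7% in neighbours, so the direction of Hlf detection changed between the settings. Their cells were not the same, since the young male had 408 members unthinned and 218 after thinning. Monocyte and granulocyte genes were lower in members: Ly6c2 (-2.28), F13a1 (-2.27), Elane (-2.16), Hp (-2.11), Ccr2 (-1.92), Ms4a3 (-1.89) and Mpo (-1.43). Mpo, added as a marker, was lower in 8 of 8 mice. All of these are descriptions, since Dntt divides the populations.

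Against the 329 cells with Il7r and Flt3, a small group of 21 to 65 cells per mouse, the members held more RNA of stem cell genes and less of lymphoid ones. Hlf stood at 89.6 ± 19.4 CPM in members and 22.7 ± 7.57 in the Il7r-positive cells (mean log2 ratio 1.97), and Procr (2.14), Myct1 (2.03) and Mpo (1.18) were also higher. Rag2 (-2.53), the recombinase subunit, Blnk (-2.24), the B cell receptor adaptor, Arpp21 (-2.62), Cmah (-2.54), Ighm (-1.08) and Satb1 (-0.70) were lower. Arpp21, Cmah, Satb1 and Ighm thus stood between the neighbours without Dntt and the Il7r-positive cells.

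**Figure D2:**
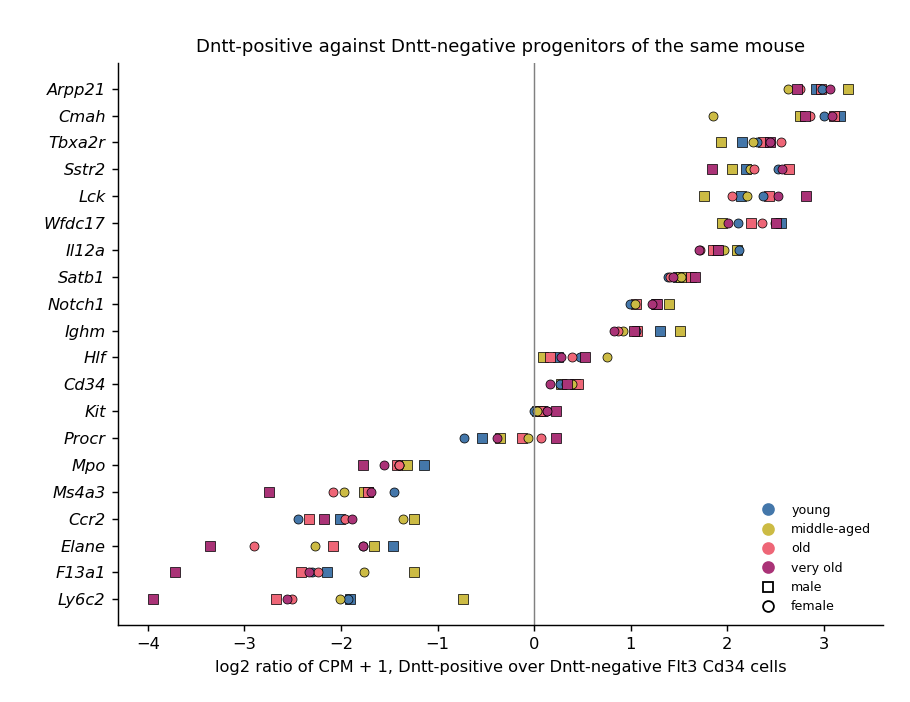
Log2 ratio of CPM (1 added) in members over that in cells with Flt3 and Cd34 but without Dntt, 1 point per mouse (8 mice). The genes are a choice of ranked genes with large mean ratios and of fixed markers, not the full ranking. Arpp21, Cmah and Lck lie above 0 and Ly6c2, F13a1 and Elane below 0 in every mouse, which was a condition of their ranking.

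The first question was whether the population shrinks with age. Members were 7.99% of the kept cells in the young male and 5.36% in the young female. They were 8.16% and 6.72% in the middle-aged male and female, 5.90% and 5.52% in the old, and 4.82% and 3.37% in the very old. The 95% Wilson interval, which covers counting error, was 7.27% to 8.76% in the young male and 2.98% to 3.81% in the very old female, but those of the young female (4.86% to 5.91%), old female (4.97% to 6.12%) and old male (5.30% to 6.58%) overlapped. The means were 6.67% ± 1.86 in young (SD, n = 2), 7.44% ± 1.02 in middle-aged (n = 2) and 4.90% ± 1.11 in older mice (n = 4). The young female lay below both old mice, so the groups overlapped. The male had the higher share at all 4 ages. Among females the young (5.36%) lay between the old (5.52%) and the very old (3.37%), and among males the young lay above both. The permutation test leaves out sex. The difference of -1.77 percentage points did not pass an exact two-sided permutation test (p = 0.267), where the smallest p that 2 against 4 mice can give is 0.0667. Without the young male it was -0.460 points, and with mitochondrial shares under 5% it was -0.504 points (exact permutation p = 0.733). That cut, also used below, removed members unevenly. It kept 106 of 408 in the young male and 43 of 245 in the very old female, but 274 of 407 in the middle-aged male.

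The same held within the Flt3-positive cells lacking Il7r and Siglech, where other cells of the sort do not count. Members were 30.6% and 27.5% of these in the young male and female, 34.2% and 28.5% in the middle-aged, 25.8% and 26.9% in the old, and 28.5% and 23.5% in the very old. The older mean of 26.2% ± 2.07 (SD, n = 4) was 2.91 points lower than the young mean of 29.1% ± 2.18 (n = 2), with p = 0.2 by the exact permutation test. Unthinned, the detection of Dntt in cells with Gata1 and Klf1 and no Flt3, taken as a guide to free RNA, was lowest in the very old mice. It was 4.71% and 3.68% in the young male and female, 3.79% and 3.68% in the middle-aged, 2.37% and 4.13% in the old, and 1.16% and 0.535% in the very old. These values are not at equal depth, since the cells had median depths of 17142.5 to 36642 UMIs over the mice. Thinned to 5000 UMIs, the detection was 0% to 2.61%. The part of free RNA in the shares of members was not tested. In cells thinned to 5000 UMIs the shares were 30.6% ± 0.274 in young and 25.7% ± 1.35 in older mice, a difference of -4.87 points without overlap, at the smallest p of this exact test (0.0667). Thinned to 3000 UMIs they were 29.4% ± 2.67 and 24.9% ± 2.66, with overlap (exact permutation p = 0.2). Cells whose Il7r UMIs were lost in thinning could count as members here. Unthinned, Il7r-positive cells were 0.91% to 1.10% of kept cells in young and 0.29% to 0.76% in older mice. Their part in the thinned differences was not tested. Without the young male the unthinned difference was -1.37 points, and without the young female -4.46. With mitochondrial shares under 5% it was -1.25 points (exact permutation p = 0.6). Among kept cells without Gata1 or Klf1 UMIs, members were 10.6% ± 2.19 in young and 7.20% ± 1.32 in older mice, without overlap and with a difference of -3.42 points at that smallest p (0.0667, exact permutation).

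Across the 8 mice, the share of kept cells had a Pearson correlation with age in weeks of -0.636 (exact permutation p = 0.0913, adjusted over 2 relations 0.183) and a Spearman correlation of -0.643 (p = 0.0972, adjusted 0.148). Leaving out the 2 mice farthest from the median age, the young ones, gave -0.909 (p = 0.00556 by the same exact permutation). Within the 6 mice of the SL19 series, without the very old, it was -0.316 (exact permutation p = 0.472). It was thus weaker within that series. For the share of Flt3-positive cells, Pearson's correlation was -0.499 (exact permutation p = 0.213) and Spearman's -0.570 (p = 0.148), with -0.708 (p = 0.111) without the young mice and -0.357 (p = 0.494) in the SL19 mice. The neighbours without Dntt were 12.6% to 16.5% of kept cells in young, 14.2% to 14.8% in middle-aged and 10.1% to 15.4% in older mice. The Il7r-positive cells were 0.91% to 1.10% in young, 0.59% to 1.30% in middle-aged and 0.29% to 0.76% in older mice, so that all 4 older mice lay below both young mice there.

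**Figure D3:**
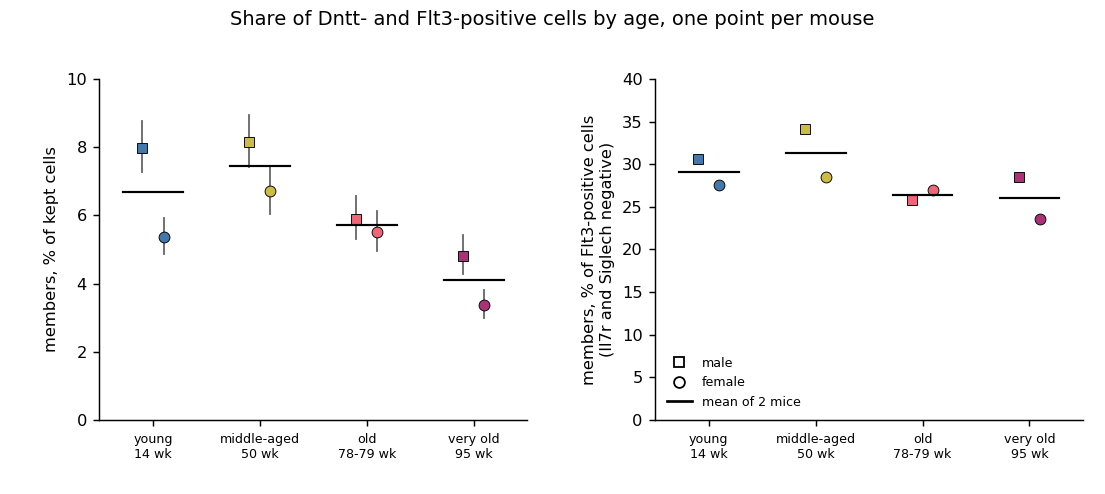
Members as a percent of kept cells and of Flt3-positive cells lacking Il7r and Siglech, by age group, 1 point per mouse (8 mice), with bars for the mean of 2 mice and thin lines for 95% Wilson intervals on the left. In both panels the very old female is lowest, at 3.37% and 23.5%, and the young and older mice overlap.

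Few genes separated older from young members. Summed UMIs per mouse were compared with edgeR's quasi-likelihood test, with age group and sex in the model, over 11248 genes, and a gene was called at a Benjamini-Hochberg adjusted p under 0.05. Only 6 genes were called, 4 of them higher in the older mice (0.0356% of genes tested) and 2 lower (0.0178%), against 706 at an unadjusted p under 0.05. The CPM values in this and the following comparisons are scaled by TMM, and all 6 genes are named. The median log2 change over all genes was -0.0045. The count was 2 without the old male, 13, 14 and 16 without the middle-aged male, the middle-aged female and the very old female, and 66 without the very old male.

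Hmga2, the fetal-type chromatin protein linked to self-renewal of young stem cells, fell with age. It stood at 31.1 CPM in the young male and 24.4 in the young female, at 3.9 and 7.4 in the middle-aged, 3.6 and 8.2 in the old and 9.5 and 7.1 in the very old male and female. Every mouse of 50 weeks or more was thus below both young mice. The change was -1.98 (log2, SE 0.25, edgeR adjusted p = 0.0163) in older and -2.33 (adjusted p = 0.00908) in middle-aged mice, the latter being -2.49 in thinned cells and -2.29 in members of 8000 to 20000 UMIs, both called. These comparisons share the 2 young mice. Without the young male or without the old male, the call in older mice was lost, and of 13 other settings it was lost only with a slope on age in weeks.

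Tnfsf13, which encodes APRIL, a survival factor for B-lineage and plasma cells, was higher with age. It stood at 7.2 and 12.3 CPM in the young male and female, 17.9 and 28.7 in the middle-aged, 25.2 and 25 in the old, and 17.4 and 23.7 in the very old. The young mice lay below all others. The change was 1.25 (SE 0.18, edgeR adjusted p = 0.0343) in older and 1.26 (adjusted p = 0.0171) in middle-aged mice. Tnfsf13os, annotated on the opposite strand across Tnfsf13 on chromosome 11, moved alike, from 3.9 and 7.6 CPM in the young to 14.0 to 22.1 in the older mice (1.78, edgeR adjusted p = 0.0163). The sources used here do not state whether the counting used strand, so the reads of these overlapping genes may not be separate. Tnfsf13 lost its call without the young male, the young female or the old male, and Tnfsf13os without the young male. Of 13 other settings, Tnfsf13 passed in 7 and Tnfsf13os in 10, and Tnfsf13 did not pass without the sex term, in thinned cells (0.98) or in the very old mice alone (1.09). In middle-aged mice, Tnfsf13os was at 2.57 in thinned cells (edgeR adjusted p = 0.0689) and 2.24 in members of 8000 to 20000 UMIs.

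The other called genes were low. Bmpr1a, a bone morphogenetic protein receptor, had 0 and 1 UMIs in the young mice and 14 to 25 in the older ones (edgeR adjusted p = 0.0195), so no fold is given. Prss34, a mast cell and basophil protease, stood at 3.7 and 15.5 CPM in the young male and female and at 0 to 0.9 in the older mice (edgeR adjusted p = 0.0349). Its call was lost without the young female or the old female, and that of Bmpr1a without either young mouse or the old male. DESeq2 called neither gene. The 10 basophil and mast cell genes, Prss34 among them, summed to 104 to 114 CPM in young and 91.9 to 107 in older mice. None of them but Prss34 was called. The part of such cells in its change was not tested.

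MHC class II genes encode the chains that present antigen to helper T cells, and dendritic cells, B cells and a share of progenitors carry them. Of the 10 listed, 1 (H2-Ab1) rose in older members. H2-Ab1, a class II beta chain, stood at 57.0 CPM in the young male and 45.0 in the young female. It stood at 132 and 81.2 in the middle-aged, 106 and 101 in the old, and 95.0 and 114 in the very old male and female, all above the young mice. The change was 1.03 (SE 0.16, edgeR adjusted p = 0.0389) in older mice and 1.05 (adjusted p = 0.0235) in middle-aged mice. Leaving out either young mouse or either old mouse ended the call in older mice, and so did 6 of 13 other settings, among them no sex term, the old mice alone and mitochondrial shares under 5%.

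Of the 10 listed class II genes, 1 (H2-Ab1) was called higher and 5 lay above both young mice in all 4 older mice, where 6.36% of all tested genes did. Their median change was 0.38, beside -0.0045 over all genes. Calls among them were 0 without either young or either old mouse, 4 without either middle-aged mouse or the very old male, and 3 without the very old female, where the median was 0.25. The median was 0.84 with mitochondrial shares under 5% and 0.63 in thinned cells. H2-Aa, the alpha chain, stood at 25.1 and 8.6 CPM in young, 66.0 and 25.8 in middle-aged, 50.3 and 42.4 in old and 49.8 and 66.1 in very old males and females. Its change in older mice was 1.67 (edgeR adjusted p = 0.0945). H2-Eb1 stood at 17.1 and 6.9, 58.5 and 18.6, 39.5 and 30.5, and 39.6 and 45.5 CPM in the same order. Its change was 1.72 (edgeR adjusted p = 0.0762) in older and 1.64 (adjusted p = 0.0499) in middle-aged mice. Cd74, the invariant chain, stood at 56.3 and 45.0 CPM in young and 76.9 to 147 in older mice (1.13, edgeR adjusted p = 0.592). H2-DMb1, of the peptide-loading partner DM, stood at 35.7 and 30.7 in young and 38.7 to 50.5 in older mice (0.43, adjusted p = 0.351). Of the 10 genes, 8 had positive and 2 negative changes in older mice. The 5 genes named here are those of the 10 that lay above both young mice, and only H2-Ab1 passed the test. The 16 dendritic cell genes summed to 1055 to 1103 CPM in young and 1048 to 1229 in older mice, and the 11 mature B cell genes to 4.67 to 10.6 and 4.91 to 11. Their part in the class II change was not tested.

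The 5 class II genes above were picked as lying above both young mice in all older mice. Promoters are shown with the CCAAT pentamer in capitals on either strand (ATTGG when reversed), the core of the Y box of class II promoters. The sequences are those of RefSeq on GRCm38.p6, 5′ to 3′ along each gene, from 250 bases before to 50 bases after the start. Of the 5 genes, H2-Aa at chr17:34287774-34288073 (minus strand), H2-Eb1 at chr17:34305617-34305916 (plus strand) and H2-DMb1 at chr17:34152941-34153240 (plus strand) are given, none of them called in older mice. H2-Ab1 and Cd74 are named only.
H2-Aa: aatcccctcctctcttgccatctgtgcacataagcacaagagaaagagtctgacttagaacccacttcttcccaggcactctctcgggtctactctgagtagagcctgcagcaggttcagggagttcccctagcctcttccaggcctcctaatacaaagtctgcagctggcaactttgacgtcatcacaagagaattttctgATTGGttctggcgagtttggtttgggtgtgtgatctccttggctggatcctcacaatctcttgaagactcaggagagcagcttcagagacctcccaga
H2-Eb1: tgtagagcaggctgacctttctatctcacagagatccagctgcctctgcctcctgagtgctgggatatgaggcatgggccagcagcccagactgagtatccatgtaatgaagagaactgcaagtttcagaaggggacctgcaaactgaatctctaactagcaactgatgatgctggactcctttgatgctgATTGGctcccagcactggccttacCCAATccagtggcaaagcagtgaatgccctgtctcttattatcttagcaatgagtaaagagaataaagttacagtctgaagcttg
H2-DMb1: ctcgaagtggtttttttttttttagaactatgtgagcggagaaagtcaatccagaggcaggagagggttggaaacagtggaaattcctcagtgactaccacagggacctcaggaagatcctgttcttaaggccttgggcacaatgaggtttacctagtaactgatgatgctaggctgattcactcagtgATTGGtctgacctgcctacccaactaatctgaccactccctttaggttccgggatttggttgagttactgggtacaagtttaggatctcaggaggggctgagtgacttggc
The pentamer lay 48 bases before the start in H2-Aa, 59 and 35 in H2-Eb1, and 61 in H2-DMb1. It occurred in 12289 of 32851 promoters of this length (37.4%), so its presence is a description and not a mark of these genes. Dntt's own promoter, at chr19:41029025-41029324 (plus strand), held none.

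Other groups of genes did not pass in older members, with the exceptions named. Of the 27 lymphoid priming genes, 22 were measured well enough to test (not Rag1, Cd79a, Vpreb3, Igll1 or Ly6d). None was called, 5 lay below both young mice in all 4 older mice (6.13% of all genes did) and 1 above, and their median change was -0.22. Ighm stood at 243 ± 31.6 CPM in young (SD, n = 2) and 205 ± 24.5 in older mice (n = 4), and Cd52, a lymphocyte surface glycopeptide, at 243 ± 43.8 and 334 ± 44.5. Of the 30 lymphoid regulators, 20 were tested with none called (median change -0.0062). Sox4 stood at 432 ± 59.9 and 422 ± 84 CPM, and Myb at 262 ± 18.8 and 278 ± 21.2. The 12 tested genes of V(D)J joining had none called and a median change of 0.026. All 25 cytokine receptor genes were tested with none called (median -0.045). Among these, Crlf2, the receptor chain for thymic stromal lymphopoietin, stood at 104 ± 13.2 and 107 ± 10.5 CPM. A lack of calls does not bound the size of these changes. Of the 22 priming genes 19 had negative values, but with mitochondrial shares under 5% it was 11 of 20 (median -0.017, 1 called higher), and in members of 8000 to 20000 UMIs the median was -0.44 with 1 called lower. Leaving out the young male gave a median of -0.13. Among them Ccr9 had -1.45 (edgeR adjusted p = 0.111), with all 4 older mice below both young mice.

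Stem cell and ageing genes were likewise below the test. The 20 tested stem cell genes had none called and a median change of 0.19, and Procr stood at 6.17 and 3.23 CPM in the young male and female and 5.84 to 12.6 in older mice (0.99, edgeR adjusted p = 0.201). Of 15 tested genes linked to stem cell ageing, none was called and 4 lay above both young mice in all older mice, where 6.36% of all tested genes did. Nupr1, a stress-response nuclear protein, had 0 and 2 UMIs in young and 2 to 24 in older mice (edgeR adjusted p = 0.312). The 15 MHC class I genes had none called, 4 above both young mice in all older mice (6.36% of all genes were), and a median change of 0.13, with B2m at 944 ± 97.3 CPM in young and 1125 ± 152 in older mice. The 24 interferon response genes (median 0.026), 15 immediate-early genes (-0.094), 28 S phase genes (-0.011), 28 G2/M genes (0.27, with 28 of 28 positive), 13 cell cycle control genes (0.039) and 13 mitochondrially encoded genes (0.068) had none called either. Of the G2/M genes, 1 lay above both young mice in all 4 older mice (6.36% of all genes did). They summed to 2037 and 2448 CPM in the young male and female, 2143 and 2251 in the old, and 2774 and 3876 in the very old. Of the lists for other lineages, myeloid (24 tested, median -0.077), erythroid and megakaryocyte (20, -0.71), dendritic (10, 0.093), neutrophil (3), mature B (2) and T and NK cell genes (2) had none called, and Prss34 was the only call among 8 basophil and mast cell genes.

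**Figure D4:**
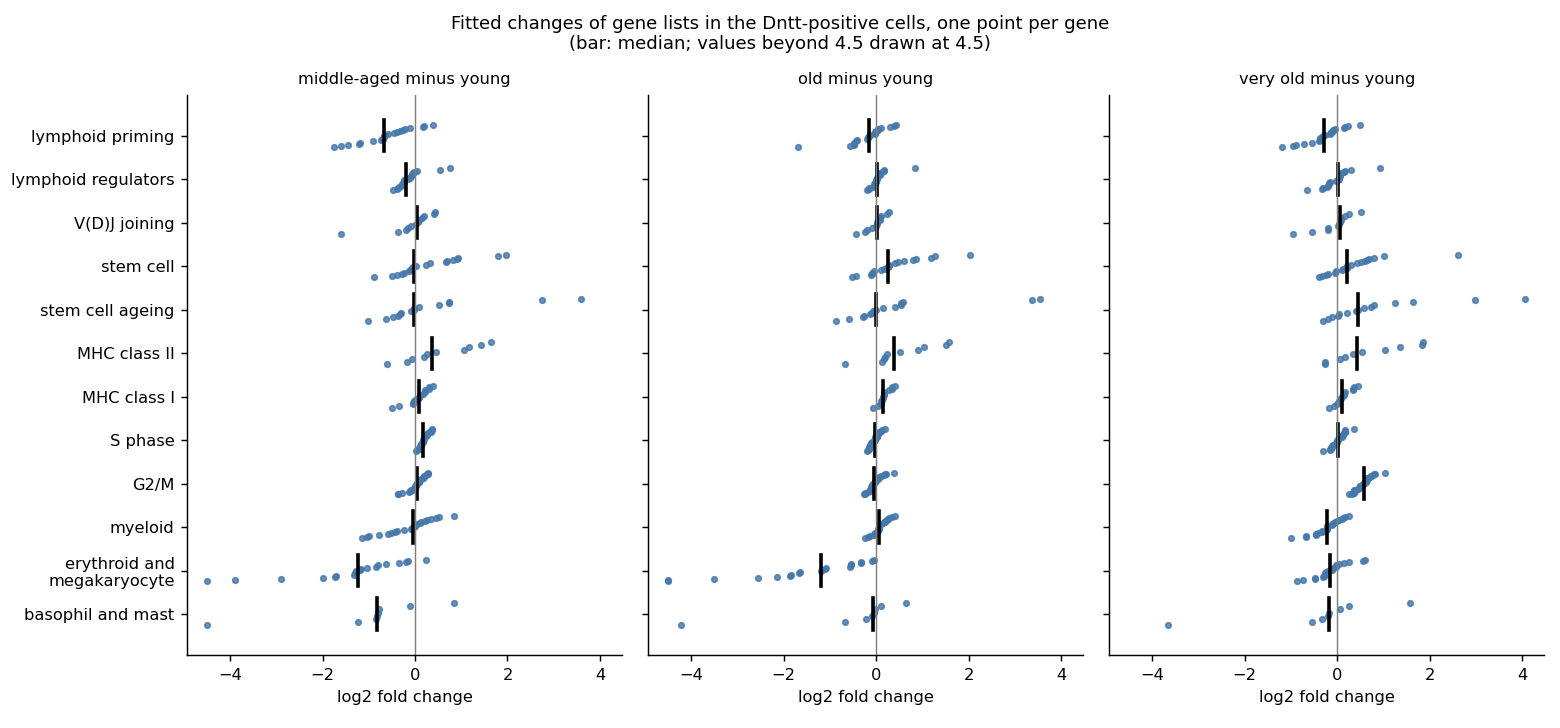
Log2 change of each tested gene of the listed groups, for middle-aged, old and very old against young mice in 3 panels, with 1 point per gene and the median of each list as a bar. The lymphoid priming genes have a median of -0.66 in middle-aged and -0.29 in very old mice, the class II genes 0.36 and 0.43, and the G2/M genes of very old mice 0.58. The middle-aged class II median was 0.022 in thinned cells, -0.052 with 2 or more UMIs each of Dntt and Flt3, and 0.85 with mitochondrial shares under 5%. It was 0.17 without the middle-aged male and 0.71 without the middle-aged female.

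Middle-aged members differed from young ones in more genes. The same edgeR fit called 59 genes, 29 higher (0.258% of genes tested) and 30 lower (0.267%), against 1854 at an unadjusted p under 0.05. DESeq2 called 63, of which 56 were higher and 7 lower, and 11 were shared. The count rested on single mice. It was 3 without the middle-aged male, 19 without the young male, 28 and 31 without the old female and male, and 161, 166 and 183 without the very old male, the middle-aged female and the very old female. Of the genes named for this comparison, Pim1 and Acot1 alone kept their call without the middle-aged male. Without the young male, Hmga2, Cnn3, Nefh, Tnfsf13os, Prss34, Hbb-bs and Pim1 alone kept theirs. Ccr9, Prss34, Hbb-bs, H2-Ab1 and H2-Eb1 also lost it without the young female, Ccr9, Tnfsf13, Bmpr1a, Prss34, Hbb-bs and Pf4 without the middle-aged female, and Cd93, Cebpb, H2-Eb1, Hbb-bs and Pf4 without either old mouse. In members of 8000 to 20000 UMIs, where the ages have more equal depth, 15 genes were called and 13 of them were among the 59. In thinned cells 28 were called, and 15 of them were among the 59. Tnfsf13 was called in neither (0.58 and 1.56), and H2-Ab1 (0.53 and 1.19) and H2-Eb1 (0.29 and 1.90) were called in the depth range but not in thinned cells.

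The lymphoid priming list held the most calls among the lower genes. Of 22 tested, 5 were called lower (Ighm, Ccr9, Cnn3, Cd93 and Dusp6) and 18 lay below both young mice in both middle-aged mice, where 23.6% of all tested genes did. None lay above both, where 23.7% of all genes did. Their median change was -0.66, beside -0.0061 over all genes, and it ranged from -0.66 to -0.22 over the other settings, the weakest with mitochondrial shares under 5%. With 1 mouse left out it was -0.69 to -0.49. The 5 calls fell to 1 of 17 tested in thinned cells (median -0.64), and to 3 of 22 in members of 8000 to 20000 UMIs (median -0.64). They were 2 with DESeq2, 1 without the sex term and 10 of 27 with no filter on low counts. The summed level of the 27 genes was 1346 to 1582 CPM in young, 1146 to 1221 in middle-aged and 1361 to 1540 in older mice, so that the older mice lay within the young range. Of the 20 tested lymphoid regulators, none was called and 7 lay below both young mice (median -0.19).

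Ighm stood at 266 and 221 CPM in the young male and female, 160 and 144 in the middle-aged, 237 and 206 in the old, and 199 and 178 in the very old. The middle-aged mice were the lowest of all. The change was -0.67 (SE 0.09, edgeR adjusted p = 0.0131) in middle-aged mice, -0.57 (adjusted p = 0.0548) in thinned cells and -0.74 (adjusted p = 0.045) in members of 8000 to 20000 UMIs. Ccr9, the thymus-homing receptor, stood at 21.8 and 12.4 CPM in young, 9.1 and 1.6 in middle-aged, 5.8 and 4.6 in old, and 11.6 and 3.7 in very old mice, all below both young mice. Its change was -1.75 (edgeR adjusted p = 0.0368) in middle-aged and -1.45 (adjusted p = 0.111) in older mice. Thinned, its middle-aged change was -1.22 (edgeR adjusted p = 0.0902), and in members of 8000 to 20000 UMIs -1.21 (adjusted p = 0.251). Cd93, a surface lectin of early progenitors, stood at 137 and 125 CPM in young and 72.1 and 94.7 in middle-aged mice (-0.67, edgeR adjusted p = 0.0378, thinned -0.64 with adjusted p = 0.0902, and -0.84 with adjusted p = 0.045 in members of 8000 to 20000 UMIs). Rag2, of the same recombinase as Rag1, stood at 5.74 and 5.0 CPM in young and 1.22 and 2.38 in middle-aged mice (-1.61, edgeR adjusted p = 0.0881).

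Pim1 had the smallest p among the genes that rose. Pim1, a kinase induced by cytokine receptors through STAT factors, stood at 98.9 and 139 CPM in the young male and female, 232 and 433 in the middle-aged, 172 and 171 in the old, and 109 and 199 in the very old. Both middle-aged mice lay above all other mice. The change was 1.45 (SE 0.17, edgeR adjusted p = 0.00908), and 1.21 to 1.67 with 1 of the 8 mice left out. Pim1 kept its call in 9 of 10 other settings, among them thinned cells (1.26) and members of 8000 to 20000 UMIs (1.54). Ifitm1, an interferon-inducible membrane protein, stood at 169 and 198 CPM in young, 856 and 460 in middle-aged, 417 and 243 in old, and 306 and 427 in very old mice (1.80, SE 0.26, edgeR adjusted p = 0.0152). It was the only stem cell list gene called, and it kept its call in thinned cells (1.57) and in members of 8000 to 20000 UMIs (1.94). Socs3, the feedback inhibitor of cytokine signalling, had 7 and 13 UMIs in young and 169 and 47 in middle-aged mice (3.08, edgeR adjusted p = 0.0378). Bcl3, a nuclear partner of NF-κB, stood at 4.02 and 3.39 CPM in young and 14.2 and 10.3 in middle-aged mice (1.72, edgeR adjusted p = 0.0186). Cebpb, the factor of emergency myelopoiesis, stood at 30.7 and 34.9 against 66.7 and 50.8 CPM (0.85, edgeR adjusted p = 0.0301). In the older mice Socs3 stood at 1.33 to 6.96 CPM, Bcl3 at 3.09 to 5.54 and Cebpb at 31.0 to 36.3. None of these 3 was called in either depth setting. In thinned cells Socs3 was at 2.39 (edgeR adjusted p = 0.0676) and Cebpb at 0.40 (adjusted p = 0.586), and Bcl3 was not tested. In members of 8000 to 20000 UMIs Socs3 was at 3.33 (edgeR adjusted p = 0.0582), Bcl3 at 1.84 (adjusted p = 0.128) and Cebpb at 0.72 (adjusted p = 0.158). Socs3, Bcl3 and Cebpb were chosen after their values were seen.

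**Figure D5:**
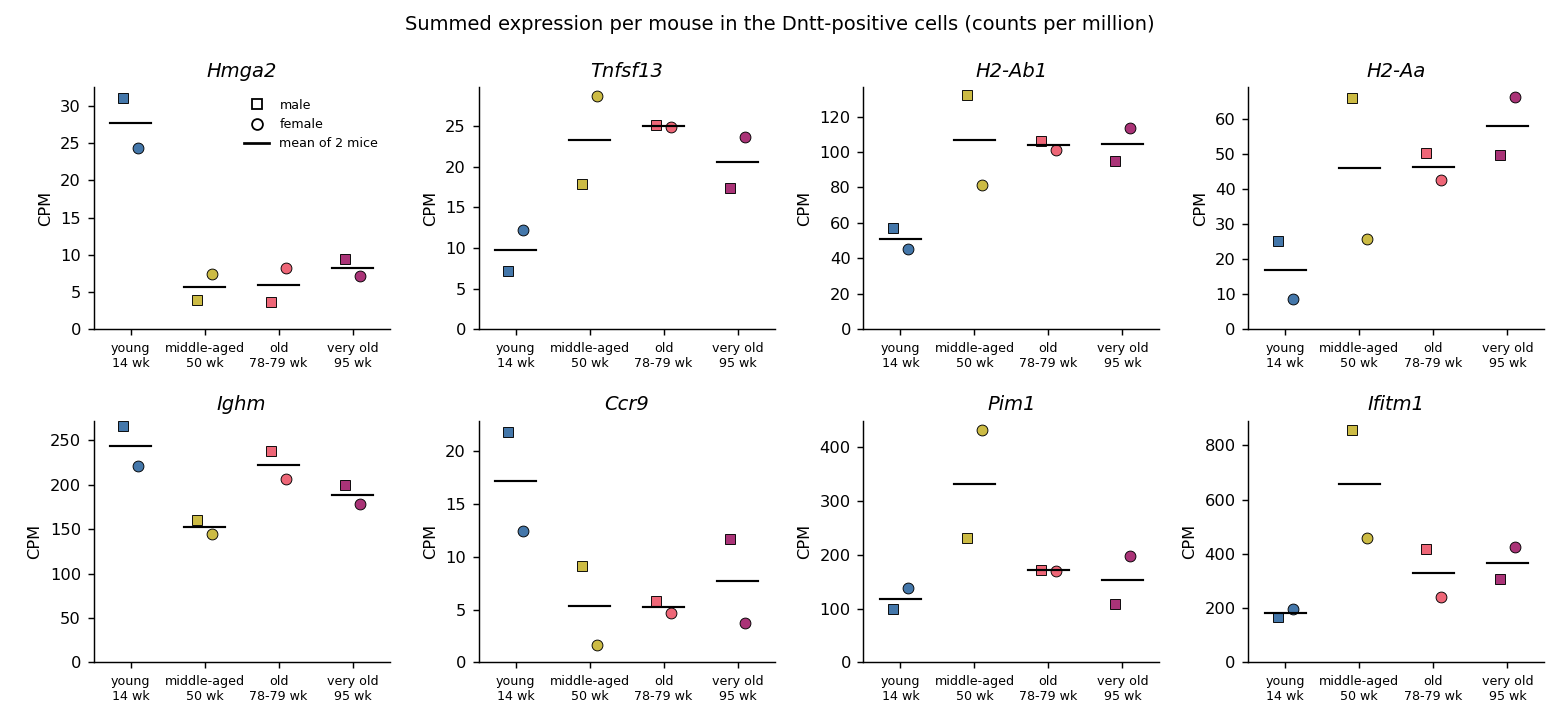
CPM (TMM-scaled, linear axis) of 8 named genes in the members of each mouse by age group, 1 point per mouse (8 mice), squares for males, circles for females and bars for the mean of 2 mice. Hmga2 lies below both young mice at every later age, Tnfsf13 and H2-Ab1 lie above them, and Pim1 is highest in the 2 middle-aged mice.

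Among other named genes, Nefh, a neurofilament subunit, stood at 12.1 and 9.85 CPM in young and 27.0 and 25.2 in middle-aged mice (1.25, edgeR adjusted p = 0.0103). Acot1, an acyl-CoA thioesterase, stood at 21.5 and 19.4 against 47.4 and 48.7 CPM (1.24, edgeR adjusted p = 0.0152). Cnn3, an actin-binding calponin, fell from 44.5 and 42.6 to 18.8 and 18.8 CPM (-1.21, edgeR adjusted p = 0.00908). Lztfl1, a ciliary trafficking protein encoded beside Ccr9, fell from 62.6 and 48.3 to 32.7 and 31.0 CPM (-0.79, edgeR adjusted p = 0.0168). Dusp6, a phosphatase of ERK, fell from 24.3 and 19.4 to 6.44 and 9.83 CPM (-1.46, edgeR adjusted p = 0.0231), and Clec12a, a myeloid inhibitory lectin, from 150 and 125 to 57.0 and 83.7 CPM (-0.99, edgeR adjusted p = 0.0171). In the older mice these genes stood at 10.8 to 19.2 CPM for Dusp6 and 118 to 144 for Clec12a. Dusp6 and Clec12a were chosen after their values were seen. In thinned cells Acot1 (1.29), Lztfl1 (-1.24) and Clec12a (-1.25) kept their call, and Nefh (0.73), Cnn3 (-0.83) and Dusp6 (-1.56) did not. In members of 8000 to 20000 UMIs Cnn3 (-1.39) and Clec12a (-1.46) kept it, and Nefh (1.23), Acot1 (1.5), Lztfl1 (-0.67) and Dusp6 (-1.41) did not.

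A few markers of other lineages were called in middle-aged mice. The myeloid list had 1 called higher and 1 lower, the dendritic list 1 lower, and the neutrophil, mature B and T and NK cell lists none. The 20 erythroid and megakaryocyte genes summed to 953 and 1472 CPM in the young male and female, 503 and 796 in the middle-aged, 654 and 712 in the old, and 1264 and 876 in the very old. Their median change in middle-aged mice was -1.24, with 2 called lower, the globin gene Hbb-bs and the platelet factor gene Pf4. Calls were 13 and 14 without the very old male and female, 0 without the middle-aged male or either old mouse, and 10 with mitochondrial shares under 5% (median -1.42). The median was -0.50 without the young female, -1.86 without the middle-aged female, -0.78 without the middle-aged male, -0.30 in thinned cells and -0.41 in members of 8000 to 20000 UMIs, where the change of Pf4 was 0.84. Of 8 tested basophil and mast cell genes, 2 were called lower, Prss34 and Cpa3, the mast cell carboxypeptidase. Cpa3 stood at 40.3 and 22.4 CPM in young and 15.2 and 11.2 in middle-aged mice (-1.24, edgeR adjusted p = 0.0171), but at 0.16 and 0.31 on the log2 scale in thinned cells and in members of 8000 to 20000 UMIs. The part of such cells or of their free RNA in the other middle-aged differences was not tested. The 28 S phase genes all had positive changes (median 0.18) with none called.

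Very old members, compared with young in the same edgeR fit, had 24 genes higher (0.213% of genes tested) and 7 lower (0.0622%). Of the 28 G2/M genes, 5 were called higher and 28 of 28 had positive changes, with a median of 0.58, beside -0.0012 over all genes. Ube2c, the ubiquitin-conjugating enzyme of the anaphase-promoting complex, stood at 96.6 and 123 CPM in the young male and female, 77.4 and 92.2 in the middle-aged, 101 and 99.2 in the old, and 164 and 300 in the very old. The very old mice were the highest of all (1.04, edgeR adjusted p = 0.0332). The other 4 were Cdc20 (0.66), Ccnb1 (0.80), Hmmr (0.81) and Cenpa (0.71), each with an edgeR adjusted p of 0.0495. Cdkn2c, the CDK inhibitor p18, stood at 17.1 and 19.7 CPM in young and 33.0 and 32.9 in very old mice (0.85, edgeR adjusted p = 0.0393). H2-Ab1 (1.03, adjusted p = 0.0469), H2-Eb1 (1.86, adjusted p = 0.0495), Tnfsf13os (1.66, adjusted p = 0.0332) and Hmga2 (-1.72, adjusted p = 0.0495) were called by edgeR here too, against the same young mice. The neutrophil genes moved in the same comparison, their sum being 33.2 and 24.2 CPM in the young male and female and 4.30 and 8.60 in the very old. S100a9, a neutrophil granule gene, had 57 and 28 UMIs in the young male and female and 2 and 1 in the very old (edgeR adjusted p = 0.0417). The part of such cells in the other very old changes was not tested. The very old genes were named after their values were seen, and their library series and their age cannot be told apart.

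Whether the age change was particular to the members was tested in 1 fit over members and Dntt-negative neighbours of the same 8 mice, with the mouse as a block. Of 12332 genes, 2 were called for a difference in the older against young change between the populations (0.0162% of genes tested), against 542 at an unadjusted p under 0.05. DESeq2 called none, with 39 unadjusted. Pf4, the platelet factor, stood at 69.3 and 38.1 CPM in the young members, 11.4 and 17.3 in the middle-aged, 8.3 and 17.2 in the old and 16.8 and 55.7 in the very old. Its change was -1.44 in members and 1.70 in neighbours, a difference of -3.07 (SE 0.32, edgeR adjusted p = 1.9e-05). Prg2, an eosinophil granule protein, stood at 0.43 to 11.7 CPM in the older members and 2.73 and 4.68 in the young, with a difference of 3.86 (SE 0.52, edgeR adjusted p = 0.00078). Neither is a gene of the lymphoid lists. In members of 8000 to 20000 UMIs, edgeR called none (469 unadjusted), and the count was 1 without the old female, 4 and 7 without the young female and male, and 8 and 9 without the very old female and male.

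None of the leading genes of the age comparison was called for such a difference. Hmga2 had a change of -1.98 in the members and -1.71 in the neighbours (edgeR adjusted p = 0.113 there), and Tnfsf13 1.25 and 1.26 (adjusted p = 0.111). H2-Ab1 had 1.03 in the members and 0.24 in the neighbours (edgeR adjusted p = 0.873), and the difference between the populations in the joint fit, 0.70, had an adjusted p of 0.967. The H2-Ab1 change is therefore not shown to be particular to the Dntt-positive cells.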

How the data were processed

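Single-cell RNA-seq libraries of 8 mice were examined. The authors made them with Chromium chemistry and Cell Ranger (6.0.0 per the file headers, with mm10 in the submitters' processing notes) and deposited them as matrices of raw UMI counts, not normalized. The chemistry and Cell Ranger versions named in the sources differ, and whether counting used strand is not given in the sources used here. Coordinates are those of GENCODE vM21 on GRCm38, in which 32235 of 32285 gene identifiers were found. The replicate is the mouse.

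Cells under 1000 UMIs (3260) and then cells with 10% or more mitochondrial UMIs (10046) were left out, and the gate given in the text was applied to raw counts. Doublets were not called, and an alternative left out the top 5% of cells of each library by UMIs. UMIs of members were summed per mouse and tested with edgeR 4.0.16 in R 4.3.3 (TMM, filterByExpr by age group, quasi-likelihood test, age group and sex, all 8 mice), and DESeq2 1.42.0 was an alternative. Shares were compared by exact permutation tests over all arrangements of the mice. Wilson intervals, from scipy 1.17.1, are at 95% and cover counting error only. The older against young fit was also run on simulated counts, and the other fits were not. It recovered 76 of 99 genes changed by 1 on the log2 scale and 94 of 98 changed by 2, with 13 false calls. The depths of 3378458 to 8215869 summed UMIs per mouse set the precision of low genes.

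The members and the 21 gene lists were chosen with earlier results of these data known. Genes are named by a rule: Dntt, Flt3 and Satb1, the largest called changes in older mice at a mean log2 CPM of 4 or more without overlap, the called or else the highest genes of each list, and the 5 smallest p-values in each direction in the other fits. Others are said to be chosen after their values were seen, as were Hmga2, Tnfsf13os and Bmpr1a in older mice, the class II genes besides H2-Ab1, Ccr9, Cd93, Rag2, Cpa3, Hbb-bs, Procr and Nupr1.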

Additional observations from a re-analysis of the deposited data

Results flagged for a closer look

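Within the 4 older mice, 4 named genes had 1 mouse far from the others by Dixon's criterion, out of 79 groups tested, where chance alone flags about 1 in 20. Crlf2 was at 91.6 CPM in the very old female and at 113 in the others. Ighd, the IgD constant gene, was at 4.72 CPM in the old male and 2.37 to 2.77 in the others. S100a8, a neutrophil granule gene, was at 40.9 CPM in the old male and 1.51 to 7.07 in the others. Cst3, cystatin C, was at 420 CPM in the very old male and 516 to 523 in the others. The old male also had the highest summed neutrophil genes of the 8 mice, 64.1 CPM against 4.30 to 36.5, and the part of such cells or their free RNA in these values was not tested.

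The age change differed between members and Dntt-negative neighbours for 2 genes by the interaction term of edgeR. The difference was -3.07 on the log2 scale for Pf4 (adjusted p = 1.9e-05) and 3.86 for Prg2 (adjusted p = 0.00078). In the members, Pf4 was at 69.3 CPM in the young male, above all 4 older mice, but the young female (38.1 CPM) lay below the very old female (55.7 CPM). Prg2 rested on 2 to 38 UMIs per mouse in the members.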

How the results depend on the processing

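Over 2008 values of named genes under the alternatives, 1671 kept their direction and their side of the threshold or moved by less than the spread, 164 lost and 62 gained a call, 108 moved and 3 reversed. The reversals were Cpa3 in middle-aged mice, at 0.16 in cells thinned to 5000 UMIs and 0.31 in members of 8000 to 20000 UMIs (a range chosen after the data were seen), and Pf4 at 0.84 in the latter. Both shares were lower in older mice under every alternative run, with differences of -0.504 and -1.25 points at mitochondrial shares under 5%. With 1 mouse left out, the difference in the share of kept cells was -3.08 to -0.460 points, and in the share of Flt3-positive cells -4.46 to -1.37. The 6 calls of older against young were 126 with no filter on low counts, 2 without the sex term, 25 with mitochondrial shares under 5%, 31 in the very old mice alone and 0 with a slope on age (479 unadjusted in edgeR). DESeq2 shared 4 of them, and thinned cells and mitochondrial shares under 5% 3 each. They were 2 to 66 with 1 mouse left out, the most without the very old male and the fewest without the old male. The 59 calls of middle-aged against young were 618 with no filter, 3 without the sex term, 21 with the stricter gate of 2 UMIs each of Dntt and Flt3, 28 in thinned cells and 15 in members of 8000 to 20000 UMIs. They were 3 to 183 with 1 mouse left out. The 2 calls of the joint fit were 0 with DESeq2 (39 unadjusted), 26 with no filter, 1 with the stricter gate, 1 with mitochondrial shares under 5%, 6 without the top 5% of UMIs and 0 in members of 8000 to 20000 UMIs (469 unadjusted in edgeR), and 1 to 9 with 1 mouse left out. The cause of these moves was not tested. With 2 young against 4 older mice, the share tests could not pass 0.05.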
